A study of Mus musculus with 24 samples.

Results

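A set of 7 genes that mark podocytes, the epithelial cells covering the outer face of the glomerular capillaries, were followed through ureteral obstruction of the mouse kidney and its surgical reversal. They are Nphs1, Podxl, Ptpro, Synpo, Cd2ap, Magi2 and Wt1. They were chosen by name, and all 7 of 7 have values among the 14785 genes of the deposited table, so none was lost to its filter on low expression. RNA came from kidneys of male C57/BL6 mice aged 8 to 9 weeks at the start, with 4 libraries in each of 6 groups, and the series title calls the tissue cortical. Sham animals (Sham) had surgery without obstruction. In the obstructed groups the ureter was tied for 2 days (UUO2) or 7 days (UUO7). In the reversal groups the ureter was reimplanted after 7 days of obstruction and the animals were killed 1 week (R1W), 2 weeks (R2W) or 4 weeks (R4W) later. The reversal groups therefore carry a full 7-day obstruction and a second operation, and they are older at sampling than animals killed during obstruction. A sham group for each recovery time was not analysed here.

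Podocytes wrap the capillaries with interdigitating foot processes that are joined by the slit diaphragm, a modified cell junction which is part of the filtration barrier. Nephrin, the product of Nphs1, spans that slit and is tied to the actin of the foot process by adaptor proteins, while a negatively charged coat keeps neighbouring processes apart. In obstruction the tubules and interstitium are the best known sites of damage, and the glomerulus is usually described as affected less. Several of these genes are also expressed outside podocytes: Podxl in endothelium, Wt1 in mesothelium, Ptpro in some leukocytes, Synpo and Magi2 in brain and other organs, and Cd2ap in many epithelia and lymphocytes.

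Values are FPKM, fragment counts corrected for transcript length and library size. Differences between groups were taken on log2(FPKM + 1), where changes of low genes appear smaller than they are, and were tested with limma over all 14785 genes with Benjamini-Hochberg adjustment. A gene was called at an adjusted p under 0.05. Most genes had higher FPKM after obstruction than in sham: the median gene was 0.09 higher on the log2 scale in UUO2, 0.42 in UUO7, 0.37 in R1W, 0.32 in R2W and 0.30 in R4W. Each comparison is therefore also given after every library was rescaled by its median ratio to the geometric mean of each gene, which brought these medians to between -0.01 and 0.01. A call was read as higher or lower than the typical gene only where it held after rescaling.

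In the deposited coordinates (GRCm38), Nphs1 lies on chromosome 7 from 30458315 to 30487223, Wt1 on chromosome 2 from 105126529 to 105173616, and Ptpro on chromosome 6 from 137252319 to 137463233, all on the plus strand. Magi2 covers chromosome 5 from 19227036 to 20704792 on the plus strand. Podxl lies on the minus strand of chromosome 6 from 31519488 to 31563981 and Cd2ap on the minus strand of chromosome 17 from 42792951 to 42876424. All are protein-coding, as is Synpo. An antisense transcript, Nphs1os, overlaps Nphs1 and is not analysed here. Whether counting used strand is not given in the sources used here, so reads of that transcript and of Nphs1 cannot be told apart.

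Windows of 250 bases before a RefSeq transcript start (GRCm38.p6) were matched for 4 of the 7 genes: Ptpro, Magi2, Nphs1 and Cd2ap. The Nphs1 window lies inside the gene span given above, and all 250 of its bases, like 241 of the Cd2ap window, are exon of a GENCODE transcript of the gene. The windows of Ptpro and of the first Magi2 start are shown as examples of a gene close to Nphs1 in the patterns below and of a gene far from it. Cd2ap lay farther from Nphs1 than Magi2. They are the plus strand, chr6:137252049-137252298 for Ptpro and chr5:19226796-19227035 for Magi2, and capitals mark a searched motif. Of the Magi2 window 240 bases are printed, without the last 10, which are exon of a GENCODE transcript of the gene.
Ptpro: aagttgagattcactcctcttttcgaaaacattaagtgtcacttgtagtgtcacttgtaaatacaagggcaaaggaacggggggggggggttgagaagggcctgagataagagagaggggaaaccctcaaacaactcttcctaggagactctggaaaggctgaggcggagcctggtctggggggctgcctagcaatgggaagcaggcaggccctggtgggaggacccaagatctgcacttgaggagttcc
Magi2: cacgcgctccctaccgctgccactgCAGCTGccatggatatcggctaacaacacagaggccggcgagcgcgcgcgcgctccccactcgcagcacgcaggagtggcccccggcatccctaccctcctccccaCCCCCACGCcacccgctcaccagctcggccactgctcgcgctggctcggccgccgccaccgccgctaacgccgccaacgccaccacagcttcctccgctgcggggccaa

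Both strands were searched for 3 motifs associated with podocyte transcription factors: GCGNGGGNG of the WT1 zinc finger type, CAGCTG of the TCF21 E-box type and TAATTA of the LMX1B type. The Magi2 window holds CAGCTG and, on the minus strand, the WT1 type, read above as CCCCCACGC. The Ptpro window and the exonic Nphs1 window hold none of the 3. The Cd2ap window, not printed, holds the WT1 type and CAGCTG as the Magi2 window does, and the window of a second Magi2 start holds TAATTA. Of 32851 RefSeq promoter windows of 250 bases, 10.5% hold the WT1 type, 13% CAGCTG and 4.84% TAATTA. These matches describe letters and are not measured binding sites.

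The 7 genes did not move as a block. Nphs1, Podxl, Ptpro and Wt1 had their lowest group mean at 2 days of obstruction and their highest 4 weeks after reversal, with the groups in the order UUO2, Sham, UUO7, R1W, R2W, R4W. Synpo had its highest mean at 7 days of obstruction, Cd2ap was already high at 2 days and stayed so, and Magi2 varied within a narrow range. In bulk tissue, fewer cells of a type and less RNA per cell cannot be told apart, and this holds for every level given here.

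**Figure D1:**
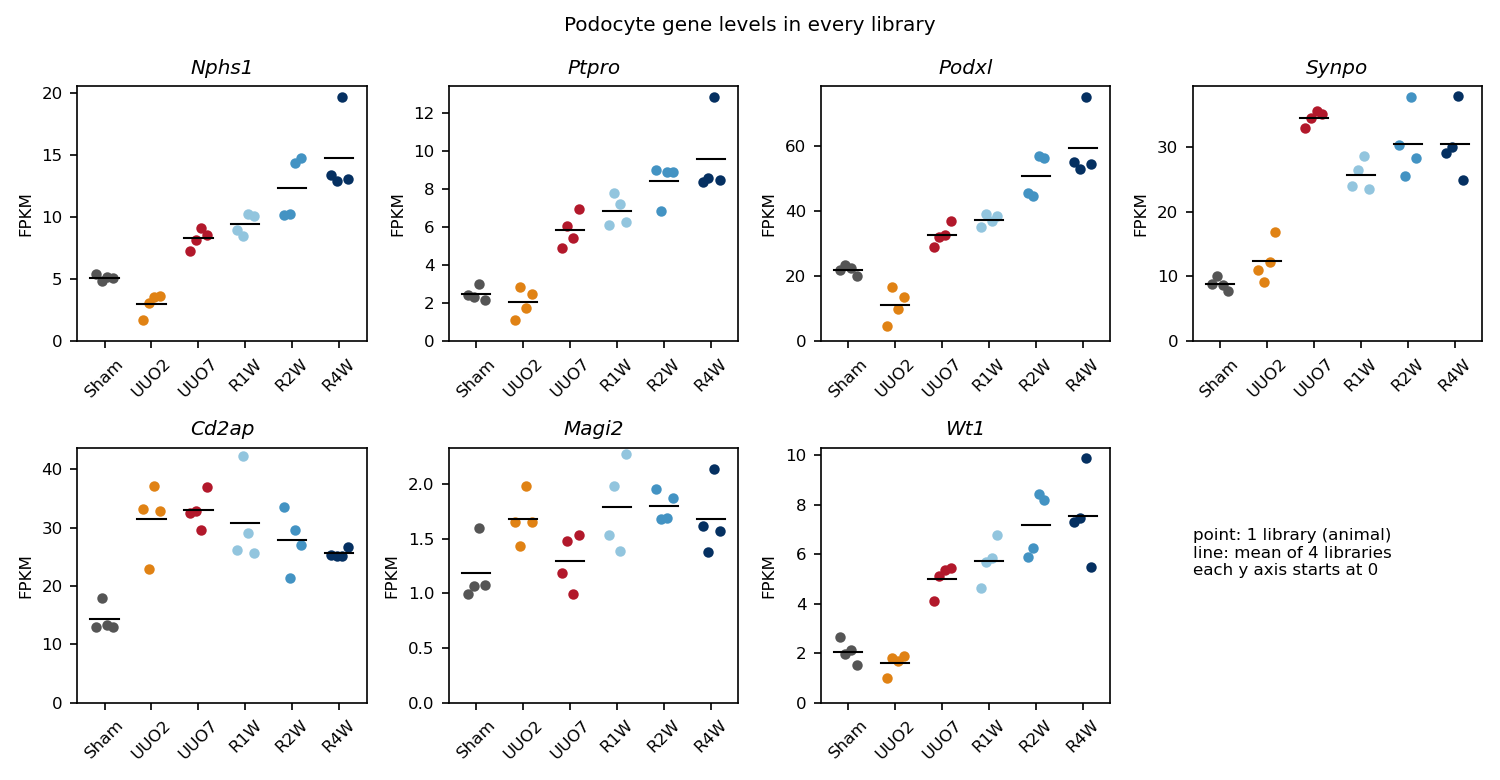
FPKM of each of the 7 podocyte genes (y axes, each starting at 0) in every library of the 6 groups (x axes); points are libraries and lines are means of 4. Nphs1, Podxl, Ptpro and Wt1 climb from UUO2 to R4W, with 1 R4W library above the rest, while Synpo peaks at UUO7 and Cd2ap is already high at UUO2.

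Nphs1, the slit diaphragm component, measured 5.40, 4.84, 5.18 and 5.07 FPKM in the 4 sham libraries and 1.71, 3.05, 3.59 and 3.66 in UUO2. It measured 7.26, 8.15, 9.14 and 8.56 in UUO7, then 8.97, 8.50, 10.23 and 10.09 in R1W. R2W libraries had 10.14, 10.22, 14.33 and 14.78 FPKM, and R4W libraries 13.35, 12.91, 19.64 and 13.02. All UUO2 libraries lay below all sham libraries, and all R4W libraries lay above all R1W libraries, R4W library 3 being far above the other three. The mean fell from 5.12 ± 0.233 (SD, n = 4) to 3.00 ± 0.904 at 2 days and reached 14.7 ± 3.28 at 4 weeks of reversal. The log2 difference from sham was -0.64 (SE 0.16) in UUO2, with a limma adjusted p of 0.00179, and 1.34 (SE 0.16) in R4W, with an adjusted p of 3.86e-07. After rescaling these were -0.78 and 1.01, both still called. At 7 days the difference of 0.60 was called on deposited values, but after rescaling it was 0.18 with an adjusted p of 0.335 and the UUO7 and sham ranges overlapped.

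Podxl encodes podocalyxin, the sialic acid-rich coat protein of the foot process surface. Its sham libraries had 21.87, 23.58, 22.50 and 20.14 FPKM, and its UUO2 libraries 4.76, 16.78, 9.92 and 13.47. It stood at 29.07, 32.01, 32.80 and 37.03 FPKM in UUO7 and at 35.16, 39.11, 36.92 and 38.48 in R1W. In R2W it measured 45.53, 44.85, 56.97 and 56.42 FPKM, and in R4W 55.28, 52.97, 75.09 and 54.45. UUO2 lay wholly below sham, with the widest spread in relation to its mean, and R2W lay wholly above R1W. The mean was 22.0 ± 1.44 FPKM in sham and 11.2 ± 5.14 at 2 days (log2 difference -1.03, SE 0.21, limma adjusted p 4.8e-04) and was 59.4 ± 10.5 at R4W (1.38, SE 0.21, adjusted p 1.4e-05). As for Nphs1, both calls held after rescaling, at -1.17 and 1.02, and the UUO7 difference of 0.55 did not, at 0.08 with an adjusted p of 0.752.

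Ptpro encodes a receptor tyrosine phosphatase of the podocyte surface, also known as GLEPP1. It measured 2.42, 2.33, 3.01 and 2.18 FPKM in sham, 1.11, 2.83, 1.76 and 2.50 in UUO2, and 4.91, 6.06, 5.43 and 6.96 in UUO7. R1W libraries had 6.14, 7.81, 7.21 and 6.27, R2W libraries 9.01, 6.86, 8.91 and 8.91, and R4W libraries 8.39, 8.57, 12.84 and 8.48. Sham and UUO2 overlapped, whereas UUO7 lay wholly above sham. The difference at 2 days, -0.22 (SE 0.16), was not called, with a limma adjusted p of 0.258. The difference at 7 days was 0.97 on deposited values and 0.59 after rescaling, called in both (adjusted p 0.00174 after rescaling). At R4W it was 1.59 and 1.30, a mean of 9.57 ± 2.18 against 2.48 ± 0.364 FPKM in sham.

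Wt1, a zinc finger transcription factor that podocytes keep expressing in adult life, was close to Ptpro in both level and course. Its libraries measured 2.64, 1.97, 2.12 and 1.52 FPKM in sham, 0.98, 1.80, 1.68 and 1.89 in UUO2, and 4.13, 5.14, 5.35 and 5.45 in UUO7. The R1W values were 4.65, 5.67, 5.83 and 6.77, those of R2W 5.89, 6.26, 8.42 and 8.19, and those of R4W 7.29, 7.47, 9.87 and 5.50. Sham and UUO2 overlapped, and from UUO7 on every library was above every sham library. Wt1 was not called at 2 days (-0.25, limma adjusted p 0.203). It was called at 7 days, by 0.98 on deposited and 0.62 on rescaled values (adjusted p 0.00141 after rescaling), and at R4W by 1.47 and 1.19.

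Synpo encodes synaptopodin, an actin-associated protein of foot processes, and lies on the minus strand of chromosome 18 from 60593973 to 60660142 (GRCm38). It measured 8.84, 10.13, 8.62 and 7.71 FPKM in sham, 11.06, 9.12, 12.22 and 16.92 in UUO2, and 32.87, 34.47, 35.50 and 35.03 in UUO7. The R1W libraries, 1 week after reversal, measured 23.96, 26.40, 28.53 and 23.51, the R2W libraries 30.32, 25.56, 37.66 and 28.35, and the R4W libraries 29.05, 29.96, 37.88 and 24.85. The UUO7 libraries were tightly grouped and above all sham, UUO2 and R1W libraries. With a mean of 34.5 ± 1.15 against 8.82 ± 0.998 FPKM in sham, a 3.91-fold level, its UUO7 difference of 1.86 (SE 0.14, limma adjusted p 5.37e-10) was the largest of the 7 genes in that comparison, and remained so after rescaling at 1.40. It stayed high at R4W, by 1.67 and, rescaled, 1.32. At 2 days its difference of 0.41 was called on deposited values (adjusted p 0.021) but not after rescaling (0.29, adjusted p 0.0648). From UUO7 to R1W it differed by -0.42 with an adjusted p of 0.0537, just outside the threshold.

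Cd2ap encodes an adaptor that links nephrin to the cytoskeleton and to endocytosis. Its FPKM were 12.91, 17.94, 13.30 and 13.05 in sham, 33.11, 22.82, 37.09 and 32.84 in UUO2, and 32.42, 32.89, 29.50 and 37.01 in UUO7. R1W libraries had 26.13, 42.24, 29.01 and 25.70 FPKM, R2W libraries 33.50, 21.29, 29.56 and 26.93, and R4W libraries 25.31, 25.06, 25.18 and 26.74. Every library of the other 5 groups lay above every sham library, and those 5 groups overlapped their neighbours in order of mean. Cd2ap was the gene of the 7 with the largest rise at 2 days: its mean was 31.5 ± 6.08 against 14.3 ± 2.43 FPKM, a log2 difference of 1.08 (SE 0.16, limma adjusted p 1.11e-05) and 0.95 after rescaling. Its difference from sham was 1.16 at UUO7 and 0.81 at R4W, and rescaled 0.70 and 0.45 (adjusted p 0.00509 for the last), all called. UUO7 and UUO2 did not differ by the test, and the sign depended on scaling: 0.08 deposited and -0.26 rescaled (adjusted p 0.0893).

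Magi2 encodes a scaffold with PDZ domains that binds nephrin from the inside of the slit. Its mean was the lowest of the 7 genes in every group but UUO2, where that of Wt1 was lower. It had 0.99, 1.07, 1.60 and 1.08 FPKM in sham, 1.65, 1.43, 1.98 and 1.65 in UUO2, and 1.19, 1.48, 0.99 and 1.53 in UUO7. R1W measured 1.53, 1.98, 1.39 and 2.27 FPKM, R2W 1.95, 1.68, 1.69 and 1.87, and R4W 1.62, 1.38, 2.14 and 1.57. Groups next to each other in order of mean all overlapped. On deposited values it was called higher than sham by 0.30 at UUO2 (limma adjusted p 0.038), 0.35 at R1W (adjusted p 0.00985), 0.36 at R2W (adjusted p 0.00863) and 0.29 at R4W (adjusted p 0.0306). None of these was called after rescaling, at 0.23, 0.09, 0.14 and 0.08 (limma adjusted p 0.0964, 0.506, 0.313 and 0.583). The difference from sham at UUO7 changed sign with scaling, 0.07 against -0.20, and neither was called. Over the 9 comparisons the one Magi2 call after rescaling was a fall of UUO7 below UUO2, -0.43 with an adjusted p of 0.00269.

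**Figure D2:**
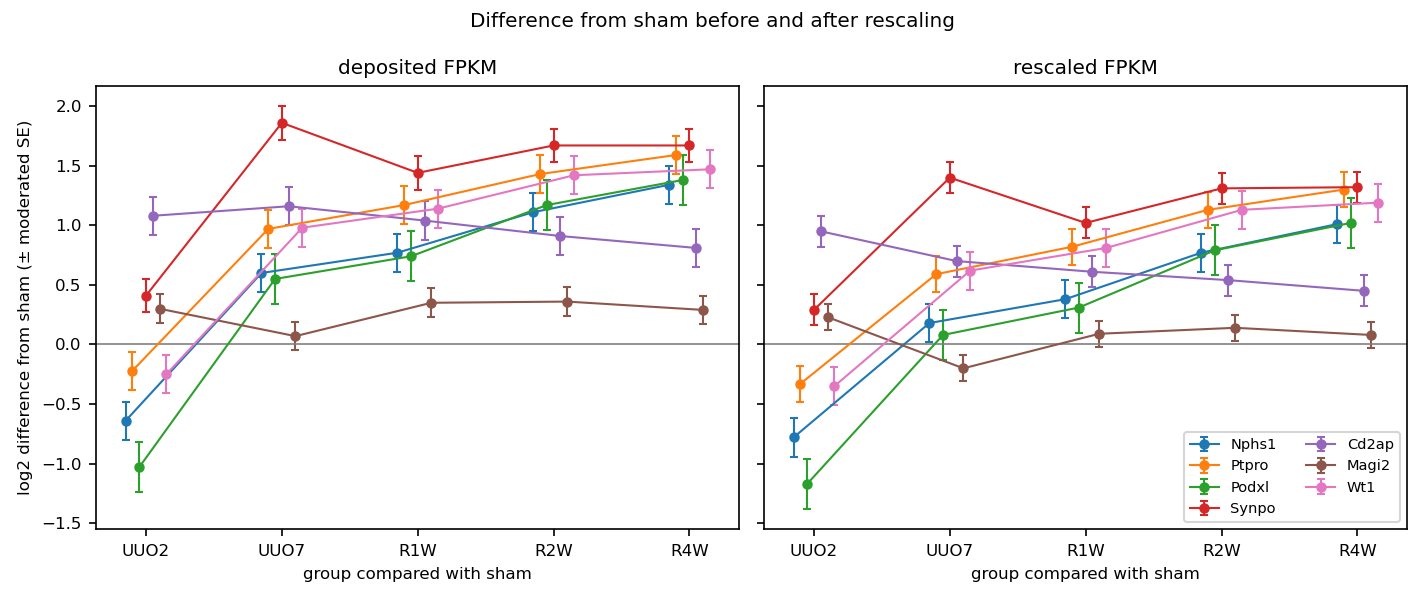
Log2 difference from sham (y axis, log2(FPKM + 1), with moderated SE) of each gene in the 5 other groups (x axis), on deposited values at left and rescaled values at right. After rescaling Nphs1 and Podxl lie near 0 at UUO7 (0.18 and 0.08) and near 1 at R4W (1.01 and 1.02), and Magi2 stays within 0.23 of 0.

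Against sham, 2 days of obstruction gave calls in both directions among the 7 genes: Nphs1 and Podxl were lower, where 17.0% of all genes were lower, and Synpo, Cd2ap and Magi2 were higher, where 32.3% were. After rescaling Nphs1 and Podxl were still lower (25.5% of all genes) and Cd2ap alone was higher (25.3%). UUO2 library 1 had the lowest Nphs1, Podxl, Ptpro and Wt1 of the group. Without it, Nphs1 still differed by -0.47 (limma adjusted p 0.00947) and Podxl by -0.70 (adjusted p 4.38e-04), and rescaled by -0.60 and -0.84. The uncalled differences of Ptpro and Wt1 shrank without it, to -0.06 and -0.12.

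Other properties of the UUO2 libraries moved with this fall, and their part in it was not tested. The 10 endothelial markers summed to 125 FPKM in UUO2 (range 76.3 to 198.2) and 171 in sham (136 to 244), and 5 of 10 were lower, or 9 of 10 after rescaling (17.0% and 25.5% of all genes). The 7 mesangial and pericyte markers split: Ren1, Itga8 and Rgs5 were lower and Pdgfrb and Des higher, and rescaled the same 3 were lower and Des alone higher. Most of the fall in their sum, from 61.4 to 36.9 FPKM, was Ren1, the renin gene of juxtaglomerular cells, at 31.4 in sham and 8.45 in UUO2. UUO2 library 1 held the lowest endothelial sum of all 24 libraries. The mitochondrial ribosomal RNA mt-Rnr1 measured 2343 to 2832 FPKM in UUO2 and 565 to 709 in sham, and no library of the other groups exceeded sham's highest. The series' design text speaks of 20 libraries multiplexed over 3 lanes, while 24 are analysed here. Whether UUO2 was sequenced apart from the rest is not given in the sources used here, and if it was, run and group cannot be told apart for it.

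At 7 days of obstruction 6 of the 7 genes were higher than sham, where 60.1% of all genes were higher and 17.8% lower. After rescaling 4 were higher, Ptpro, Synpo, Cd2ap and Wt1, where 36.5% of all genes were higher and 36.5% lower. None of the 7 was lower in either. From UUO2 to UUO7, Nphs1, Podxl, Ptpro, Synpo and Wt1 were all higher, by 1.24, 1.58, 1.19, 1.44 and 1.23, where 52.0% of all genes were. The same 5 were higher after rescaling (30.0% of all genes), and Magi2 was lower (31.9%).

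After reversal most of the 7 genes stayed above sham. On deposited values all 7 were called higher at each recovery time, where 59.4% of all genes were higher 1 week after reversal, 56.1% after 2 weeks and 54.8% after 4 weeks (11.6% lower). After rescaling 5 were higher in R1W (33.7% of all genes), all but Podxl and Magi2. The Nphs1 call among them (0.38, limma adjusted p 0.0419) was lost without Sham library 2 (0.33, adjusted p 0.103). Then 6 were higher in R2W (31.1%) and in R4W (28.9%, with 31.1% of all genes lower), all but Magi2. In the rescaled R4W comparison the median of the 7 differences was 1.02, beside -0.01 over all genes. Podxl moved from 0.31 in R1W (limma adjusted p 0.211) to 0.79 in R2W (adjusted p 0.00316) and 1.02 in R4W on the rescaled scale.

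The comparisons within the obstructed and reversed animals separate the genes further. Between UUO7 and R1W none of the 7 genes was called by limma, where 14.5% of all genes were called in either direction, and none after rescaling, where 14.4% were. At an unadjusted p under 0.05, Synpo (0.00826) and Magi2 (0.0263) passed, in opposite directions. By 4 weeks, Nphs1, Podxl, Ptpro and Wt1 were above UUO7 by 0.74, 0.83, 0.62 and 0.49, where 17.6% of all genes were higher. The same 4 were called after rescaling, by 0.84, 0.94, 0.70 and 0.57 (25.1% of all genes). Synpo, Cd2ap and Magi2 were not called in that comparison on either scale. From R1W to R4W, Nphs1 was higher by 0.57 (adjusted p 0.0172) and Podxl by 0.64 (adjusted p 0.0418), where 5.06% of all genes were higher. The Podxl call was lost without any 1 of the 8 libraries (limma adjusted p 0.0509 to 0.117) and with a pseudocount of 0.1 (0.0568), and the Nphs1 call in a fit of the 2 groups alone (0.0603). Ptpro joined them after rescaling, at 0.47 with an adjusted p of 0.0404 (8.67% of all genes).

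R4W library 3 carried the highest Nphs1, Podxl, Ptpro, Wt1, Synpo and Magi2 of its group. Without it, the R4W differences from sham of Nphs1, Podxl, Ptpro and Wt1 were 1.20, 1.26, 1.45 and 1.34, and rescaled 0.88, 0.90, 1.16 and 1.07, all still called by limma. The rise over R1W was then 0.44 for Nphs1 (adjusted p 0.0604) and 0.52 for Podxl (adjusted p 0.117), so that neither was called. Rescaled, Nphs1 was still called (0.50, limma adjusted p 0.0466), while Podxl (0.60, adjusted p 0.0846) and Ptpro (0.34, adjusted p 0.131) were not. The Wt1 rise over UUO7 was 0.36 (adjusted p 0.0671), and rescaled 0.45 (adjusted p 0.0269). The title and the treatment label of R4W library 2 disagree, 4 weeks against 2 weeks of recovery. Placed in R2W, on deposited values, it left the numbers of the 7 genes called in R2W and R4W unchanged; this placement was not run on rescaled values.

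Ratios of FPKM within a library do not depend on how the library is scaled. Podxl was 4.31 ± 0.408 times Nphs1 in sham and between 3.68 and 4.17 times in the means of the other groups. Its spread was widest in UUO2, at 3.68 ± 1.29 with a range of 2.76 to 5.50. Synpo was 1.73 ± 0.251 times Nphs1 in sham, 4.18 ± 0.270 in UUO7 and 2.08 ± 0.200 in R4W. Its 4 UUO7 ratios, 3.88 to 4.53, all lay above the sham ratios, 1.52 to 2.09. Cd2ap was 2.81 ± 0.604 times Nphs1 in sham, 11.5 ± 5.35 in UUO2 and 1.79 ± 0.347 in R4W. Magi2 went from 0.232 ± 0.0540 in sham through 0.609 ± 0.241 in UUO2 to 0.114 ± 0.00758 in R4W. Relative to Nphs1, Cd2ap and Magi2 were therefore highest at 2 days of obstruction and lowest 4 weeks after reversal.

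These ratios were tested in UUO7 and R4W against sham with 4 libraries a group, on the log2 ratio of FPKM + 1, by an exact permutation test (two-sided). The smallest p such a test can give is 0.0286, and after Benjamini-Hochberg adjustment over the 12 tests the smallest value reached was 0.0571, so none passed. At that smallest p a ratio could pass only if enough of the others reached it too. That none passed therefore does not show that the ratios were equal. With a pseudocount of 0.1, or on rescaled values, 7 of the 12 reached an adjusted exact p of 0.049: the 6 named next and Ptpro in UUO7. Groups were fully separated for Synpo in UUO7 (log2 ratio difference 1.26), for Magi2 in UUO7 (-0.52) and R4W (-1.05), for Cd2ap in R4W (-0.53), for Wt1 in UUO7 (0.38) and for Ptpro in R4W (0.24). Podxl differed least, by -0.05 in UUO7 (exact p 0.571) and 0.04 in R4W (exact p 0.6). This order rests on the pseudocount: with 10, the R4W difference was 0.41 for Podxl (adjusted exact p 0.049) and -0.06 for Ptpro.

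**Figure D3:**
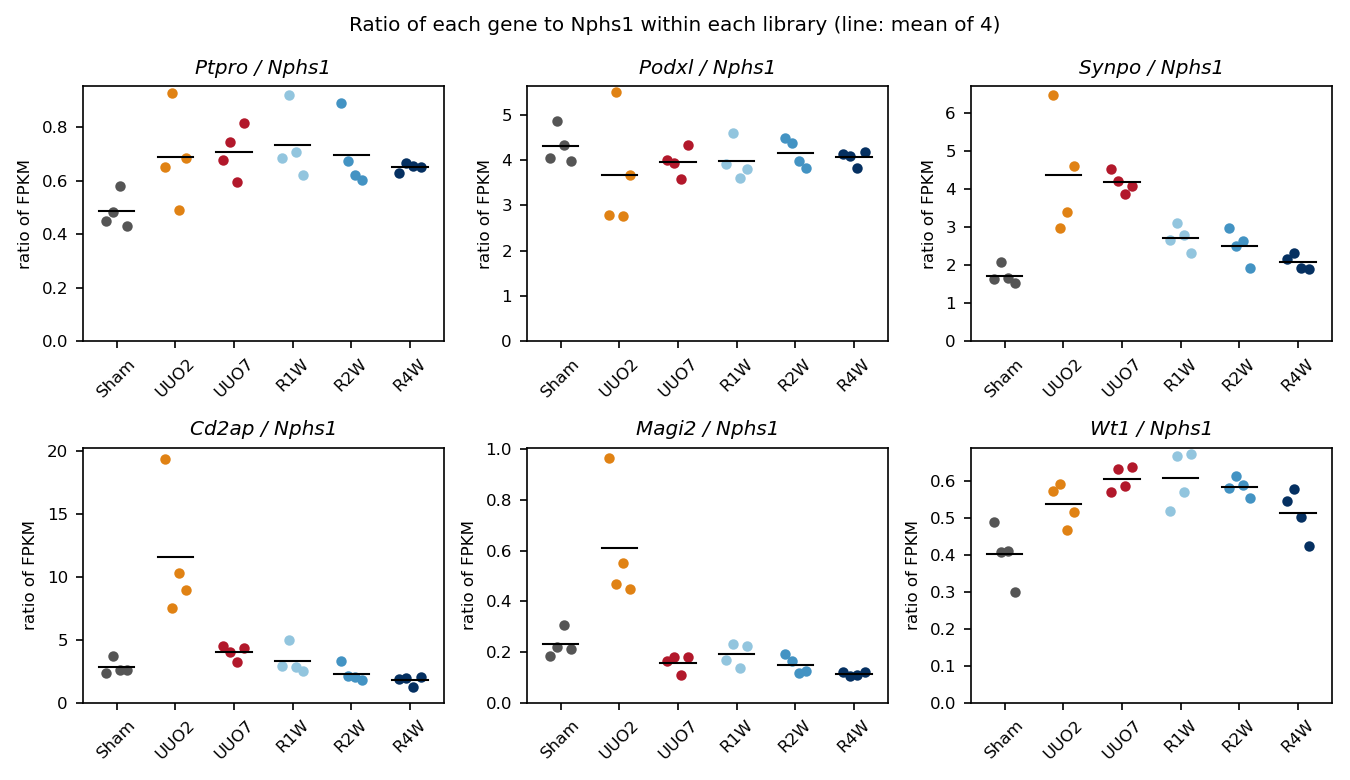
Ratio of each of the 6 other genes to Nphs1 in FPKM (y axes, starting at 0) in every library of the 6 groups (x axes); points are libraries and lines are means of 4. The Podxl ratio is close to 4 in most groups (4.31 in sham, 4.06 in R4W), the Synpo ratio is high at UUO2 and UUO7, and the Cd2ap and Magi2 ratios are highest at UUO2.

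Libraries of the same group also differed together for some of the genes. As a description over the deviations of the 24 libraries from their group means, Pearson's r was 0.854 for Podxl with Ptpro, 0.813 for Nphs1 with Wt1 and 0.751 for Nphs1 with Podxl. It was 0.512 for Nphs1 with Synpo and -0.0915 for Nphs1 with Cd2ap. Libraries share their dissection and their depth across genes, so these values describe the libraries and carry no test.

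Over all 24 libraries, and among 10332 other genes whose mean reached 5 FPKM, the gene closest to Nphs1 in log2(FPKM + 1) was Podxl (r 0.971), followed by Ptpro, Clic3, Sema3g and Ccl21a. Wt1, whose mean lay below 5 FPKM, was left out of that order. Its r with Nphs1, 0.962, lay between those of Podxl and Ptpro. Podxl was closest to Sema3g, a secreted semaphorin (r 0.972), then Nphs1, Slc9a3r2, which encodes a scaffold that binds podocalyxin, and Clic3. Ptpro was closest to Gimap3, Hvcn1, Gimap1, Gimap4 and C1qtnf1, of which the Gimap genes are known from lymphocytes. Wt1 was closest to Ptpro (r 0.971), then Gimap3, H2-Q7, Nphs1 and H2-Q6, the H2-Q genes belonging to the major histocompatibility complex.

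Synpo had other neighbours: Nes, the intermediate filament nestin (r 0.982), Ltb, Inf2, Slc15a3 and Fes. Cd2ap was closest to Jpt2 (r 0.972), Eif1a, Bicc1, Tes and Cxadr. Magi2 had no close neighbour, its nearest being Gm5831 with an r of 0.759, then Usp1, Usp25, Rnf20 and Fmr1. In the order of likeness to Nphs1, Synpo stood at place 594, Magi2 at place 5412 and Cd2ap at place 6462. These neighbours and places are those of deposited values. After rescaling the nearest gene was Rnf20 for Magi2 (r 0.726) and Bicc1 for Cd2ap (r 0.952), and that of the other members was unchanged. The r with Nphs1 turned from 0.123 to -0.339 for Cd2ap and from 0.273 to -0.0678 for Magi2. All these correlations run over the same 24 libraries, so differences between the 6 groups and between libraries of a group both enter them.

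Markers of other cell types that these genes could come from moved across the same groups, and their part in the results was not tested. The endothelial sum of 171 FPKM in sham compared with 478 in UUO7 and 399 in R4W, with 9 of 10 markers higher in UUO7 and 10 of 10 in R4W, where 60.1% and 54.8% of all genes were. Rescaled, 8 and 9 were higher (36.5% and 28.9% of all genes). The mesothelial sum of Msln, Upk3b and Krt19 was 1.14, 20.82, 1.44 and 2.18 FPKM in the sham libraries, so that its sham mean of 6.40 rests on library 2, and averaged 99.6 in UUO7 and 61.5 in R4W. Most of it was Krt19, a keratin of other epithelia too, with 75.31 to 118.98 FPKM in UUO7. Msln itself, which encodes mesothelin, ranged from 0.06 to 1.47 FPKM in sham libraries, from 5.61 to 11.77 at UUO7 and from 1.84 to 2.34 at R4W. For the same 3 groups the 4 lymphocyte markers summed to 1.83, 18.7 and 28.1 FPKM, and the 5 macrophage markers to 47.4, 778 and 887. Parietal epithelial markers, from the cells lining Bowman's capsule, summed to 64.2, 246 and 185 FPKM, of which Krt18 and Pax8, both also expressed in tubules, gave 16.5 and 32.8 in sham and 152 and 48.3 in UUO7. Mesangial and pericyte markers averaged 233 FPKM in UUO7 and 132 in R4W. The 6 smooth muscle and myofibroblast markers summed to 53.9 FPKM in sham libraries and 200.1 in UUO2, were highest at UUO7 (674), as Synpo was, and averaged 326 at R4W. Of these 6, 4 were higher in UUO7 and 6 in R4W (60.1% and 54.8% of all genes), and rescaled 4 and 5 (36.5% and 28.9%). Acta2, Tagln, Col1a1 and Col3a1 carried the rise of the sum at UUO2 and UUO7. Myh11 measured 3.26 to 6.47 FPKM in sham, 1.07 to 1.80 in UUO2 and 2.88 to 3.78 in UUO7. Cnn1 measured 0.82 to 2.80, 0.18 to 0.72 and 1.08 to 2.69 in the same groups.

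Proximal tubule markers moved the other way. The 5 proximal tubule markers summed to 3257 FPKM in sham libraries and to 1572 (UUO2), 789.8 (UUO7) and 1859 (R4W), and all 5 were lower than sham in UUO7 and in R4W on both scales (17.8% and 11.6% of all genes, rescaled 36.5% and 31.1%). The 5 markers of distal tubule and collecting duct did not follow them to R4W: their sum averaged 2692 FPKM over sham libraries, against 1421 (UUO7) and 2870 (R4W), with 5 lower in UUO7 and none called in R4W on either scale. The 5 medullary markers summed to 671 FPKM in sham, 383 (UUO2), 410 (UUO7) and 784 (R4W), with 2 lower in UUO7 on both scales, and with Fxyd4 higher in R4W on deposited values and none rescaled. Aqp1, which proximal tubules express too, gave 361 to 373 FPKM of that sum in every sham library. Akr1b3, the aldose reductase gene, measured 559.41 FPKM in Sham library 2 and 50.66 to 63.99 in the other sham libraries, against 86.34 to 351.39 in R4W. Sham library 2 also stood apart with 34.2 FPKM of urothelial markers against 1.45 to 2.31 in the other sham libraries, and 199.5 FPKM of adipose markers against 40.3 to 48.5. The R4W libraries held more urothelial signal, 42.6 to 140.7 FPKM, and 2 of them more adipose signal: R4W library 1 had 1029 FPKM of adipose markers and R4W library 3, which carries the highest podocyte values, 210 FPKM, with 140.7 and 102 of urothelial markers. The part of these tissues in the R4W values was not tested. The Cd2ap value of Sham library 2 was the highest of the sham group. Without it the Cd2ap differences from sham were 1.18 in UUO2, 1.26 in UUO7 and 0.92 in R4W, all called. The deposited Magi2 calls of UUO2 and R4W were lost without it (limma adjusted p 0.0821 and 0.0676). They were also lost without UUO2 library 1 (adjusted p 0.0645) and without R4W library 3 (adjusted p 0.124), respectively.

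Beyond the 7 genes, 54 other podocyte genes were listed by role and 49 had values. Kirrel2, Trpc6, Crb2, Lmx1b and Foxd1 were not analysed here. At UUO2, 17 were higher and 8 lower than sham, shares close to the 32.3% and 17.0% of all genes, and rescaled 15 and 11 (25.3% and 25.5% of all genes). At UUO7 38 were higher and 5 lower, where 60.1% and 17.8% of all genes were, with a median difference of 1.07 beside 0.42 over all genes. At R4W 43 were higher and none lower, where 54.8% and 11.6% of all genes were, with a median of 1.04 beside 0.30. Rescaled, the counts were 34 higher and 7 lower at UUO7 (36.5% and 36.5% of all genes, median 0.61 beside 0.01) and 38 higher and 5 lower at R4W (28.9% and 31.1% of all genes, median 0.74 beside -0.01). These shares of all genes are also the background for the counts by role that follow. Many of these genes are also used by other cells. The smallest gene mean over the 24 libraries of the deposited table is 1 FPKM. Kirrel3 (0.08 to 0.52 FPKM), Plekhh2 (0.47 to 0.71), Plce1 (0.51 to 0.88) and Pla2r1 (0.67 to 0.98) lay below that in every sham library. Such genes have values only through other groups, which favours a call above sham. The counts over all genes passed the same filter.

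Of the 9 slit diaphragm genes, 8 were higher in UUO7 and 9 in R4W, where 60.1% and 54.8% of all genes were. Rescaled, 8 and 8 were higher (36.5% and 28.9% of all genes). The tight junction gene Tjp1 was higher by 1.12 in UUO7 and 1.24 in R4W, and rescaled by 0.69 and 0.91. Cdh3, which encodes P-cadherin, had the largest UUO7 difference of the group, 2.38, and 2.03 rescaled.

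Among the 12 genes of the foot process cytoskeleton, 9 were higher and 1 lower in UUO7 (60.1% and 17.8% of all genes), and rescaled 8 and 2 (36.5% each). In R4W 10 were higher and none lower (54.8% and 11.6% of all genes), and rescaled 8 and 2 (28.9% and 31.1%). Actn4, which encodes the actin crosslinker alpha-actinin-4, measured 93.0 FPKM in sham and 109 in UUO7 and was not called there (0.21, limma adjusted p 0.193). Its sign turned after rescaling, again without a call (-0.27, limma adjusted p 0.0937). The largest UUO7 difference was 2.35, and 1.97 rescaled, for the formin gene Inf2, from 2.07 to 14.6 FPKM.

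Among the 12 surface, signalling and secreted proteins, 9 were higher and 2 lower in UUO7 (60.1% and 17.8% of all genes), and 10 and none in R4W (54.8% and 11.6%). Rescaled, the counts were 8 and 2 (36.5% each), then 9 and 1 (28.9% and 31.1%). Pdpn, podoplanin, had the largest UUO7 difference, 2.69, and 2.29 rescaled, from 2.85 to 23.6 FPKM, and was still at 20.7 in R4W. Cdkn1c, the cell cycle inhibitor p57, averaged 8.06 FPKM in sham libraries, 22.0 at 7 days and 32.5 at R4W (1.85, limma adjusted p 1.52e-07, and 1.51 rescaled). Vegfa, the vascular growth factor that podocytes and tubules make, was lower, at 148 FPKM in sham and 93.3 in UUO7 (-0.67, limma adjusted p 1.87e-05, and -1.15 rescaled). In R4W it was at 127 FPKM (-0.22, adjusted p 0.1), and rescaled it was still called lower (-0.59, adjusted p 7.72e-04).

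Of 6 transcription factor genes, 5 were higher in UUO7 and 6 in R4W (60.1% and 54.8% of all genes), and rescaled 3 and 5 (36.5% and 28.9%). Tcf21, a helix-loop-helix factor of podocytes and of stromal cells, had the largest UUO7 difference, 2.68, and 2.23 rescaled, from 9.39 to 64.8 FPKM.

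Of the 10 genes of the glomerular basement membrane and its receptors, 7 were higher and 2 lower in UUO7 (60.1% and 17.8% of all genes), and rescaled 7 and 3 (36.5% each). In R4W 8 were higher and none lower (54.8% and 11.6%), and rescaled 8 and 2 (28.9% and 31.1%). Lamb2, the laminin chain of the mature glomerular basement membrane, averaged 17.2 FPKM in sham libraries, 39.5 at 7 days and 46.3 at R4W, rescaled differences from sham of 0.71 and 1.04. Lama5 had the largest rise in UUO7, 2.22, and 1.75 rescaled, from 37.4 to 177 FPKM. Col4a3, a chain of the type IV collagen of that membrane, had 32.01, 30.02, 34.17 and 25.41 FPKM in sham and 8.10, 9.22, 5.05 and 9.99 in UUO7, with no overlap (-1.82, limma adjusted p 5.87e-08, and -2.27 rescaled). At R4W its mean was 23.5 FPKM (-0.36, adjusted p 0.123), and rescaled it was still lower by the test (-0.72, adjusted p 0.00388). Podocytes are its glomerular source, and tubules make it too.

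**Figure D4:**
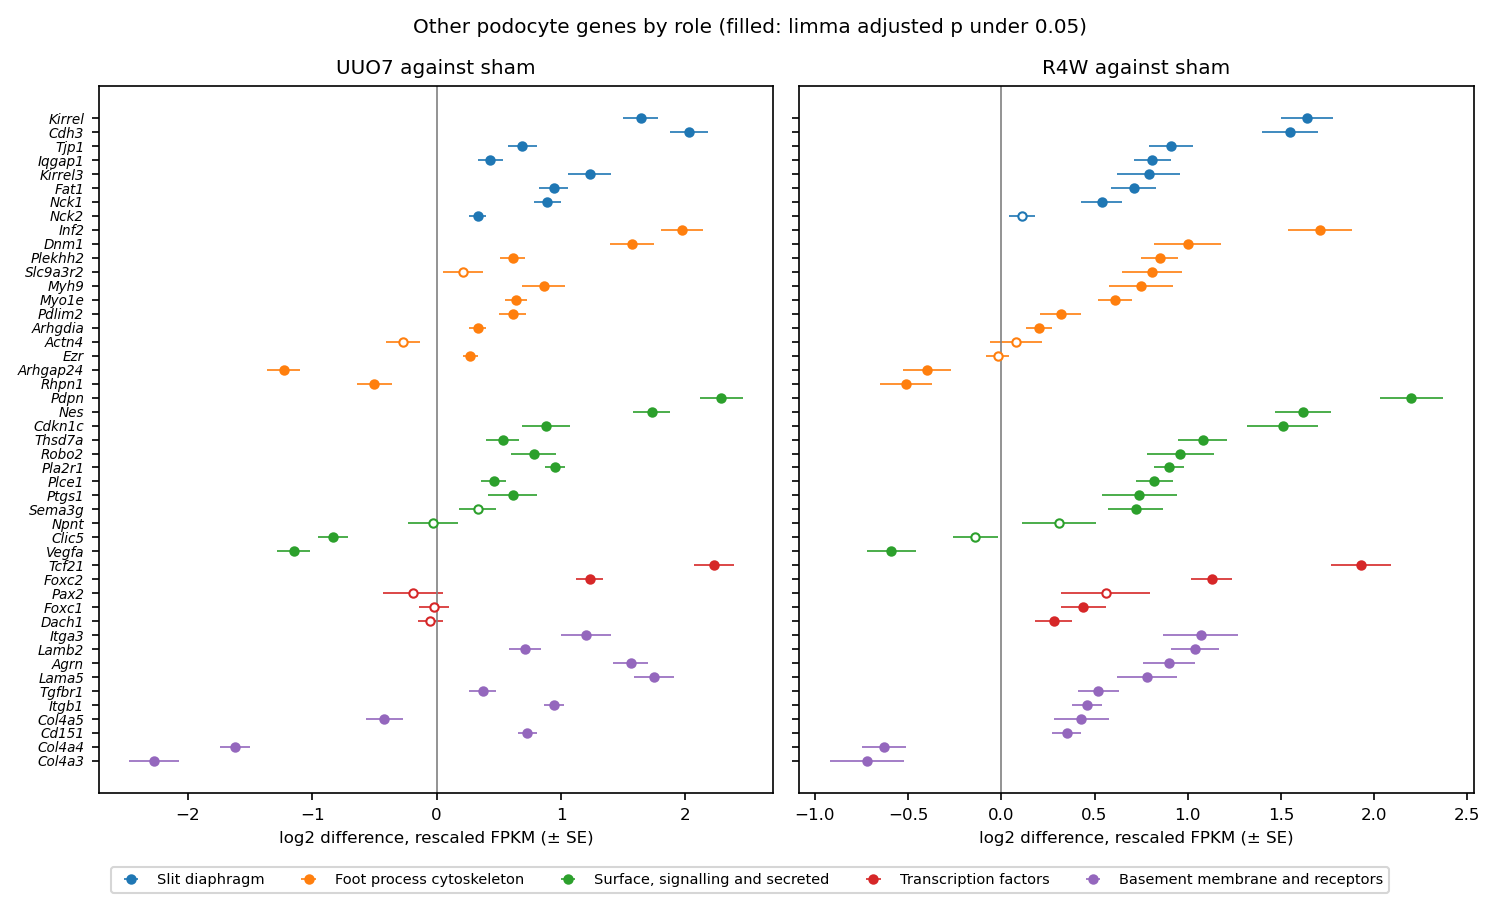
Log2 difference from sham on rescaled values (x axes, with SE) of other podocyte genes (y axis, grouped by role), in UUO7 at left and R4W at right; filled points passed the limma threshold. Most points lie right of 0, and Col4a3 is farthest left in both panels.

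The authors' deposited table also gives log2 fold changes and adjusted p-values of their own. For Nphs1 the authors' deposited table lists -0.97 for UUO2 against sham (adjusted p 1.92e-04), 0.05 for UUO7 (0.792) and 1.33 for R4W (8.26e-15). For Podxl the authors' deposited table lists -1.09, 0.07 and 1.04 for the same comparisons. For Wt1 the authors' deposited table lists -0.55 at UUO2 with an adjusted p of 0.0434, a fall that limma did not call. For Magi2 the authors' deposited table lists 0.05 at R4W (adjusted p 0.863) and -0.37 at UUO7 (adjusted p 0.0262). From UUO7 to R1W, where limma called none of the 7, the authors' deposited table lists Synpo at -0.34 (adjusted p 1.98e-06) and Podxl at 0.23 (adjusted p 0.026). From R1W to R4W it lists Nphs1 at 0.99 (adjusted p 7.14e-08), Podxl at 0.71 (3.3e-06), Ptpro at 0.75 (7.94e-05) and Synpo at 0.47 (0.00345). Wt1, Cd2ap and Magi2 did not pass there (adjusted p 0.122, 0.338 and 0.573). It also lists Cd2ap at -0.29 from UUO7 to R4W (adjusted p 3.84e-04) and Podxl at 0.32 in R1W against sham (2.22e-04).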

How the data were processed

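PolyA-selected RNA of 24 mouse kidneys was sequenced as paired reads, per the labels and series text. Per the submitters' processing notes FastQC, Bowtie2, RSEM and DESeq2 were used with mm10; which tool made which column, and the version of each, is not given in the sources used here. The deposited table holds 1 value per gene and library, in a unit that neither headers nor labels name. FPKM was inferred from the deposited values, whose columns sum to between 717415 and 830179 and vary less once multiplied by transcript length (ratio of highest to lowest 1.16, then 1.08). The smallest gene mean is 1, so low genes were not analysed here. The table gives no read totals and depth per library was not estimated here, so no counting interval is given. The authors also deposited log2 fold changes and adjusted p-values, whose direction was inferred from their slope against the FPKM columns.

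The fit used log2(FPKM + 1) of all 24 libraries, 1 coefficient per group and 9 comparisons, with eBayes (trend) of limma 3.58.1 under R 4.3.3. Benjamini-Hochberg adjustment ran over 14785 genes and calls were made at 0.05 with no minimum fold. SD is over the 4 libraries of a group, which the series text describes as different animals, and SE is moderated. Ratios, exact tests (scipy 1.17.1) and figures were made in Python 3.11.15. The method was tested on simulated data: of 200 genes changed by 1 on the log2 scale in a simulated UUO7 against sham comparison of 14785 genes, 191 were called, and 8 unchanged genes were.

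Groups came from sample titles. The members and gene lists were chosen with earlier results of these data known. Other genes named are Actn4, Lamb2, Col4a3, Vegfa, Cdkn1c, Tjp1, the gene of each role with the largest absolute UUO7 difference, and the 5 genes of highest r with each member; some genes of this rule and of the lists are not reported here by name. Alternatives were pseudocounts of 0.1 and 10, rescaling, a mean of at least 5 FPKM, fits of 2 groups or without UUO2, another placement of R4W library 2, a replicate block and removal of each library.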

Additional observations from a re-analysis of the deposited data

Results flagged for a closer look

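In groups of 4, a library was picked out when its gap to the nearest other exceeded Dixon's 95% critical share of the group's range. Of 42 such checks 7 passed, where about 2.1 are expected by chance. In R4W library 3 Nphs1 was 19.64, Podxl 75.09 and Ptpro 12.84 FPKM, each apart from the other three, and in that library Wt1 was the highest of its group too. Ptpro was low in R2W library 2, at 6.86 FPKM. Cd2ap was high in Sham library 2, at 17.94 FPKM, the library with urothelial and adipose markers, and in R4W library 4, at 26.74 FPKM, where the other three lay within 25.06 to 25.31. Magi2 was high in Sham library 3, at 1.6 FPKM.

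For 5 genes the change from sham differed between 2 and 7 days of obstruction, by the limma comparison of UUO7 with UUO2. The difference between the changes was 1.24 for Nphs1, 1.58 for Podxl, 1.19 for Ptpro, 1.44 for Synpo and 1.23 for Wt1, with adjusted p of 7.76e-07, 2.05e-06, 1.6e-06, 3.56e-08 and 9.3e-07. After rescaling Magi2 differed too, by -0.43. The changes at R4W and UUO7 differed by 0.74 for Nphs1, 0.83 for Podxl, 0.62 for Ptpro and 0.49 for Wt1, and those at R4W and R1W by 0.57 for Nphs1 and 0.64 for Podxl, calls that leaving out 1 library could end. All these changes use the same sham libraries.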

How the results depend on the processing

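The number of the 7 genes called between UUO2 and sham, 5 on deposited values, was 3 with a pseudocount of 10, 3 after rescaling, 3 after rescaling with the replicate block, and 3 after rescaling without UUO2 library 1 or without Sham library 2. Leaving out 1 library at a time gave 3 to 5 there, with 3 without Sham library 4 and without UUO2 library 4. It gave 5 to 6 for UUO7 against sham, 7 to 7 for R1W and R2W, 6 to 7 for R4W, 5 to 5 for UUO7 against UUO2 and 3 to 4 for R4W against UUO7. In R4W against R1W it gave 0 to 1 in place of 2: 0 without R4W library 3 and 1 without any other library of either group. That count was also 1 with a pseudocount of 0.1, with the 2 groups alone, and after rescaling without R4W library 3, and it was 3, with Ptpro added, after rescaling, with a pseudocount of 10 or without UUO2. R1W against sham fell from 7 to 4 after rescaling without Sham library 2. R1W against UUO7 rose from 0 to 1, Synpo lower, with a pseudocount of 10, the 5 FPKM minimum, the 2 groups alone, or without UUO2, and ranged from 0 to 1 when a library was left out (1 without R1W library 3). The causes were not tested. The 5 FPKM minimum leaves out Wt1 and Magi2.

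Signs turned for values that were not called on deposited values. Magi2 in UUO7 against sham was -0.20 after rescaling, -0.20 rescaled with the replicate block and -0.24 rescaled without Sham library 2. Cd2ap in UUO7 against UUO2 was -0.26 rescaled, -0.26 with the block added, -0.23 rescaled without UUO2 library 1 and -0.06 without UUO2 library 2 (range -0.06 to 0.17 with a library left out). Magi2 in R4W against R1W was 0.02 without R1W library 4 (range -0.14 to 0.02). None of the 12 ratios to Nphs1 passed in the tests reported. With a pseudocount of 0.1 the log2 ratio differences passing at an adjusted exact p of 0.049 were, in UUO7, Ptpro 0.52, Synpo 1.28, Magi2 -0.55 and Wt1 0.58, and in R4W Ptpro 0.41, Cd2ap -0.64 and Magi2 -1.01. Rescaled, the same 7 passed at 0.42, 1.23, -0.37, 0.44, 0.28, -0.56 and -0.94. With a pseudocount of 10 those passing were, in UUO7, Synpo 0.97, Cd2ap 0.55 and Magi2 -0.26, and in R4W Podxl 0.41, Synpo 0.39, Magi2 -0.64 and Wt1. The log2 ratio of Podxl to Nphs1 was -0.07 in R4W with a pseudocount of 0.1, and in UUO7 0.14 with 10 and 0.01 without Sham library 2 (range -0.09 to 0.01). With a pseudocount of 10 the R4W ratio was -0.06 for Ptpro and -0.17 for Wt1, the Ptpro difference of 0.24 having separated the groups with the pseudocount of 1.

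Replicate numbers recur in the titles of all groups, but the animals differ, and in no comparison did every same-numbered pair of libraries reach an r over 0.1 (mean r between -0.174 and 0.148). All pairs were weakly positive in R4W against UUO7 (0.0419 to 0.116, 6 of 8 libraries closest to their own number) and in R4W against R1W (0.0161 to 0.116, 3 of 8). With the replicate number as a block the count for UUO2 against sham was 4 and the other 8 comparisons kept their counts.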
